A study of Mus musculus with 5 samples.

Results

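Transcripts of 8 dual-specificity phosphatases (Dusp1, Dusp2, Dusp3, Dusp4, Dusp5, Dusp6, Dusp7 and Dusp16) and 2 Sprouty proteins (Spry1 and Spry2) were followed while mouse macrophages became osteoclasts. The genes were taken by symbol from the rows that the platform annotation assigns to a single gene. They are 10 of 22180 genes with such a row, and all 10 lay above the level filter, a mean over the arrays of 4.89 on the log2 scale, which 12049 genes passed (called measured here). Dusp6 had 2 rows, of which the brighter is used, and each of the others had 1. Bone marrow cells of wild-type mice aged 10 weeks were grown on plastic. They received 20 ng/ml M-CSF, a growth factor for macrophages, and RANKL at 30 ng/ml, which binds its receptor RANK to induce osteoclasts. The 5 samples were macrophages before RANKL (day 0), differentiating cells (days 1, 2 and 3) and cells labelled as mature osteoclasts (day 5). All carried the same wild-type genotype, and how many mice gave the cells, or whether they were pooled, is not given in the sources used here. Each day had 1 Affymetrix array, so there was no spread between cultures, no test could be run and every difference compares single arrays. No array of cells kept without RANKL for the same time was analysed here, so days in culture and RANKL cannot be told apart.

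Dual-specificity phosphatases of this family remove phosphate from both the threonine and the tyrosine of the activation loop of MAP kinases and so switch off ERK, JNK and p38. They differ in where they sit and in what they prefer: Dusp1, Dusp2, Dusp4 and Dusp5 are inducible nuclear enzymes, Dusp6 and Dusp7 are cytoplasmic and prefer ERK, Dusp16 prefers JNK and p38, and Dusp3 is a small atypical enzyme. Sprouty proteins restrain signalling from receptor tyrosine kinases to Ras and ERK. In osteoclast precursors the M-CSF receptor, a receptor tyrosine kinase, feeds ERK, and RANK feeds ERK, JNK and p38. Many of these inhibitors are themselves transcribed in response to MAP kinase activity and act as negative feedback.

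The promoters of the 4 members whose highest and lowest arrays were at least 2-fold apart are shown because these genes had 4 different time courses. Each is the stretch of 250 bases before the annotated start site in RefSeq (build GRCm38.p6), written 5′ to 3′ in the direction of transcription. Capitals mark the motifs found.
Dusp1, chr17:26508473-26508722, minus strand: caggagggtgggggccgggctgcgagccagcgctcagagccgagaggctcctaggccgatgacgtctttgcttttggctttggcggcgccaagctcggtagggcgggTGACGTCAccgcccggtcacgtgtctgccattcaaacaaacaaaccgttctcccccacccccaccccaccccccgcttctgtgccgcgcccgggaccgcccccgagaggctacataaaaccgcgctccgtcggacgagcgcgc
Dusp5, chr19:53528895-53529144, plus strand: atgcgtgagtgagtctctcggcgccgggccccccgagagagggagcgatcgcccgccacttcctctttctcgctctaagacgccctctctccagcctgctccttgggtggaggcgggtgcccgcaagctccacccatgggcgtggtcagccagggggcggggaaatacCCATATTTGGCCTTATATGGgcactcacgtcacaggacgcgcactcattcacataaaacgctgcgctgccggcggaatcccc
Dusp6, chr10:99262981-99263230, plus strand: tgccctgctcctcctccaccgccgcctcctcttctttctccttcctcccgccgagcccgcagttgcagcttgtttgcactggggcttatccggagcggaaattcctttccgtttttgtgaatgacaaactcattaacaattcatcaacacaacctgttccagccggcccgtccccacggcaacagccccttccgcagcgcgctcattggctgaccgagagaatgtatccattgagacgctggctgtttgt
Spry1, chr3:37639697-37639946, plus strand: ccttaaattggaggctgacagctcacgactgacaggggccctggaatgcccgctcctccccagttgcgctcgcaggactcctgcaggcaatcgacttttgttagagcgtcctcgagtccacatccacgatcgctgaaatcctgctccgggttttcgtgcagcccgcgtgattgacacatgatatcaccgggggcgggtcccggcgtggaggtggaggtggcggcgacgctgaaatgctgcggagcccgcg
A promoter was found for 9 of the 10 members, and for Dusp4 none is shown. Searched on both strands were the AP-1 site TGANTCA, the cAMP response element TGACGTCA, the ETS site CCGGAAG, the CArG box bound by serum response factor and the NF-kB site. The Dusp1 promoter held 1 cAMP response element, starting 143 bases before the start site. The Dusp5 promoter held 2 CArG boxes directly side by side, starting 82 and 72 bases before the start site. No motif overlapped another, and none of the 5 was found in the windows of the other 7 members. Among 32851 promoter windows of the same length, 1.55% held a cAMP response element, 1.47% a CArG box, 6.75% an AP-1 site, 6.91% an ETS site and 3.90% an NF-kB site. These are matches of letters and no measurement of binding.

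The day labels were checked against marker genes. All 11 osteoclast markers (among them Acp5, Ctsk, Mmp9 and Calcr) were at least 2-fold higher at day 5 than at day 0, with a median difference of 6.00. All 9 macrophage markers lay above the filter level on every array. Of 10 neutrophil and granulocyte markers 8 were measured, and the median of these 8 was 6.41 at day 0, 6.46 at day 1 and 5.35 at day 5. At day 5 all 8 lay below day 0, and 4 of them (Elane, Ltf, Ngp and S100a9) were at least 2-fold lower (median difference -1.06). Against day 1, 6 of the 8 were at least 2-fold lower at day 5 (median -1.14). T and NK cell, B cell, stromal and erythroid marker lists had medians between 3.95 and 4.34 on the arrays of days 0 and 5, below the filter, but single genes of these lists lay above it. Dcn of the stromal list was at 5.20 on day 0 and 8.45 on day 1, and Cd5 of the T and NK cell list was at 5.67 on day 0 and 8.38 on day 5. Of 6 endothelial markers 3 were measured, with Vwf 1.87 higher and Cdh5 at -1.29 at day 5 relative to day 0. The part of these other markers in the members' values was not tested. As a yardstick of measurement noise, the disagreement between 2 rows of a gene was taken over 442 genes. Per row it had an SD of 0.33 for day 1 against day 0, 0.42 for day 5 against day 0 and 0.21 for day 5 against day 3. For pairs of days without their own SD, that of day 5 against day 0 was used. This yardstick does not cover the spread between cultures. In bulk RNA, fewer cells expressing a gene and less of its RNA per cell cannot be told apart.

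The members did not move as one group. Relative to day 0, Dusp6 was lower on every later array, Dusp5 was higher at day 1 and lower at day 3, Dusp1 stepped down between days 1 and 2, and Spry1 was higher from day 2 on. For 4 of 10 members the highest and lowest arrays were at least 2-fold apart, beside 25.8% of all measured genes. Spry2 had the smallest range of the 10, 0.37 on the log2 scale.

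**Figure D1:**
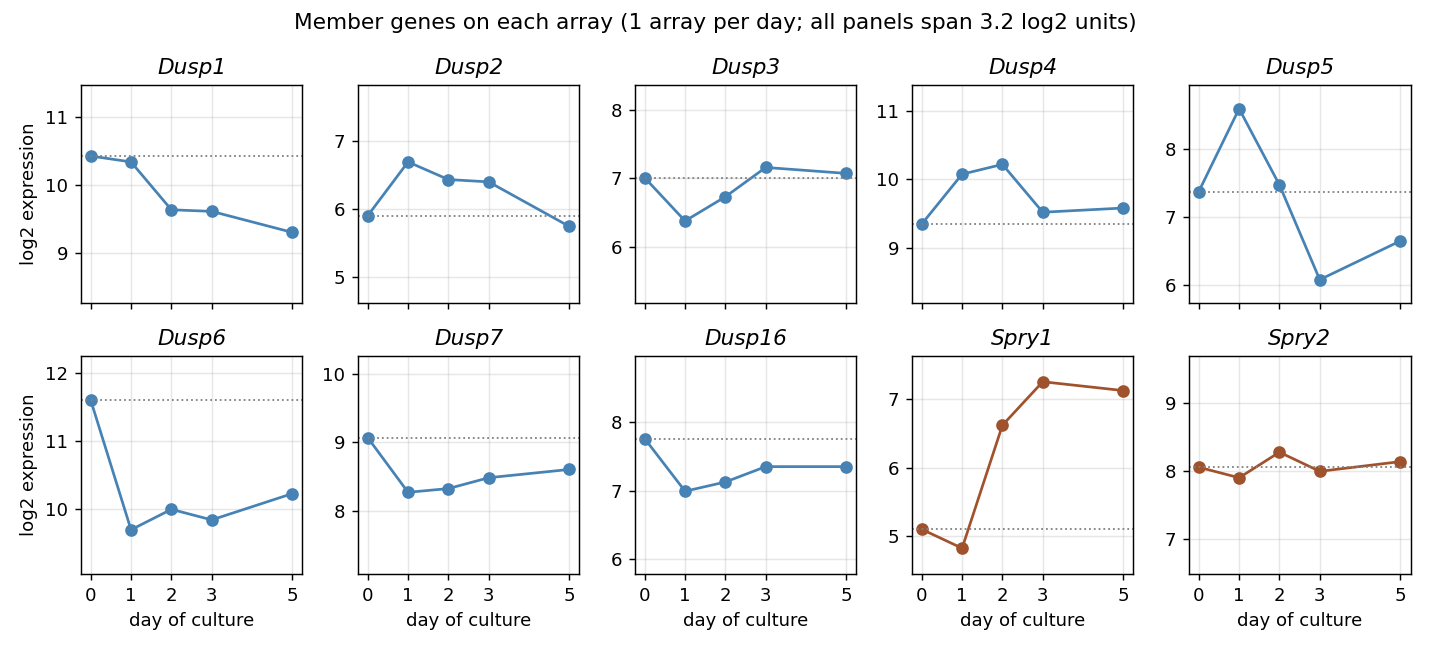
Log2 expression (vertical axis) of the 10 members against the day of culture (horizontal axis), 1 array per day, with the dotted line at the day 0 value; blue marks Dusp genes and brown Sprouty genes. Dusp5 spans 2.50 log2 units, Spry1 2.44 and Dusp6 1.90, while Spry2 spans 0.37.

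Among the inducible nuclear phosphatases, Dusp5, which is selective for ERK, had the widest range of all members. Its log2 values were 7.37 at day 0, 8.59 at day 1, 7.47 at day 2, 6.08 at day 3 and 6.65 at day 5. The day 1 array was thus the highest and the day 3 array the lowest, with days 0 and 2 only 0.10 apart. Dusp5 was 2.32-fold higher at day 1 than at day 0 (log2 difference 1.21), then 2.17-fold lower from day 1 to day 2 (-1.12) and 2.62-fold lower from day 2 to day 3 (-1.39). It was the only member at least 2-fold lower in either of those later steps, in which 0.556% and 3.91% of measured genes were. From day 2 to day 3 no member was at least 2-fold higher, beside 2.08% of measured genes. Between days 3 and 5 it was 0.57 higher, and its day 5 value lay 0.72 below day 0.

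Dusp1, the early-response phosphatase of p38, JNK and ERK, had log2 values of 10.43, 10.34, 9.64, 9.62 and 9.31 at days 0, 1, 2, 3 and 5. The arrays of days 0 and 1 were high and 0.09 apart, those of days 2 and 3 were lower and 0.02 apart, and day 5 was lowest. Dusp1 was 2.17-fold lower at day 5 than at day 0 (-1.12). Most of that difference, -0.70, lay in the single step from day 1 to day 2. The granulocyte markers given above were also lower at day 5 than at day 0 and day 1, as Dusp1 and Dusp5 were, and their part in these values was not tested.

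Dusp2, an inducible nuclear phosphatase of leukocytes, had log2 values of 5.90, 6.69, 6.43, 6.40 and 5.75 in day order. Days 1 to 3 stood above day 0, by 0.79 at day 1, and day 5 lay 0.16 below day 0, a gap within the yardstick. Dusp4, which sits in the nucleus and acts on ERK and JNK, was at 9.34, 10.07, 10.22, 9.52 and 9.58. Its arrays of days 1 and 2 were high, 0.73 and 0.87 above day 0, and those of days 3 and 5 were 0.17 and 0.23 above it. Neither gene reached a 2-fold difference between any pair of arrays: their ranges were 0.95 and 0.87. The members higher at day 1 than at day 0 by any amount were thus Dusp2, Dusp4 and Dusp5, and not Dusp1. This was not particular to inducible nuclear enzymes. Outside the members, the cytoplasmic Dusp9 (1.97) and Dusp10 (1.07) were higher at day 1 too, while Dusp8 was at -0.35.

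The cytoplasmic members, Dusp6 and Dusp7, had their highest value on the day 0 array. Dusp6, the ERK-selective feedback phosphatase, was at 11.60, 9.70, 10.00, 9.84 and 10.23 on the log2 scale in day order. Day 0 stood apart from the rest, and the 4 later arrays lay within 0.53 of each other. Dusp6 was 3.73-fold lower at day 1 than at day 0 (-1.90) and 2.58-fold lower at day 5 (-1.37). Against day 1, the day 5 array was 0.53 higher, so the difference at day 5 rests on the day 0 array. The dimmer row of Dusp6 showed the same order of day 0 over the others, with -1.26 at day 1 and -0.88 at day 5. The mean of both rows gave -1.58 at day 1 and -1.13 at day 5.

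Dusp7, a close relative of Dusp6 that also prefers ERK, was at 9.07, 8.27, 8.32, 8.48 and 8.60. Its lowest array was day 1, 0.80 below day 0, and day 5 was still 0.47 below. Dusp16, a phosphatase of JNK and p38, was at 7.76, 6.99, 7.13, 7.35 and 7.35, with day 1 lowest (-0.77) and day 5 at -0.41, which is within the yardstick. Dusp3, the atypical enzyme that can dephosphorylate ERK and JNK, was at 7.01, 6.37, 6.73, 7.16 and 7.07. It too was lowest at day 1 (-0.63), but its arrays of days 3 and 5 lay 0.15 and 0.06 above day 0, within the yardstick. None of these 3 genes reached a 2-fold difference.

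The Sprouty genes had different courses. Spry1 was at 5.10, 4.82, 6.62, 7.26 and 7.13 in day order, with days 0 and 1 low and days 2, 3 and 5 high. The step from day 1 to day 2 was 3.48-fold (1.80), where 2.46% of measured genes were at least 2-fold higher and no other member was, and a further 0.64 followed from day 2 to day 3. Spry1 was 4.47-fold higher at day 3 than at day 0 (2.16) and 4.09-fold higher at day 5 (2.03). Its day 0 value lay just above the filter level of 4.89 and its day 1 value below it. The size of the Spry1 differences is therefore uncertain. Spry2 was at 8.06, 7.90, 8.28, 8.0 and 8.14, and every gap between neighbouring values in the order of its arrays was within the yardstick. Its day 2 array lay 0.37 above day 1, more than the yardstick of 0.27 for day 2 against day 1.

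**Figure D2:**
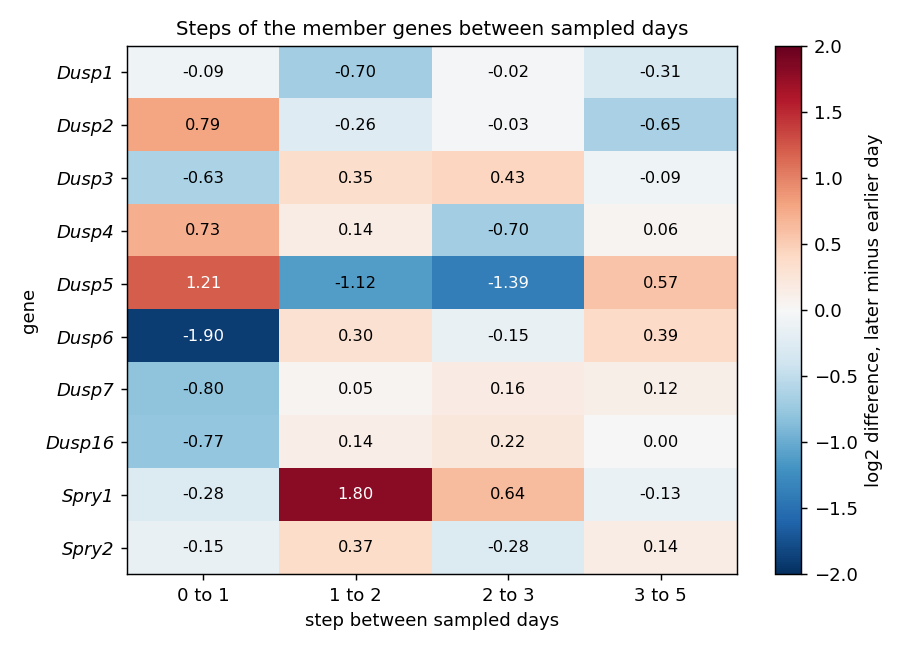
Log2 difference of each member (rows) for each step between sampled days (columns), later minus earlier day, printed in the cells and coloured from blue (lower) to red (higher). The first step holds the lowest cell, Dusp6 at -1.90, and the step from day 1 to day 2 the highest, Spry1 at 1.80.

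Counted by day, 1 of 10 members was at least 2-fold higher at day 1 than at day 0 (Dusp5), beside 2.91% of measured genes, and 1 was lower (Dusp6), beside 4.17%. At day 2 these were Spry1 (background 5.18% higher) and Dusp6 (5.25% lower). At day 3 Spry1 was higher (7.29%), and Dusp5 and Dusp6 were lower (7.50%). At day 5 Spry1 was higher (6.78%), and Dusp1 and Dusp6 were lower (6.56%). Of 10 genes a single one is already 10%, so these counts do not set the members apart from the background. The comparisons of days 1, 2, 3 and 5 share the day 0 array. With day 1 as the start, Spry1 was higher at day 5 (2.31, background 6.30%), and Dusp5 (-1.94) and Dusp1 (-1.03) were lower (background 6.73%). From day 3 to day 5 none of the 10 reached 2-fold in either direction, and only 0.158% and 0.116% of measured genes did. Centring the arrays on the median level of 12 reference genes put the median difference of all measured genes at -0.21 for day 1 and -0.49 for day 5. On that scale Spry1 (1.54), Dusp1 (-1.61) and Dusp6 (-1.86) kept their direction at day 5 and Dusp5 (-1.21) also passed 2-fold. Dusp3 (-0.43), Dusp4 (-0.26) and Spry2 (-0.41), slightly above day 0 as deposited, lay below it on that scale. At day 1 Dusp6 was at -2.11 and Dusp7 at -1.01, while Dusp5, at 1.00, was just under 2-fold. The 12 reference genes themselves had a median difference of 0.01 at day 5, with Sdha farthest up (1.10). Centring on their median deviation instead, chosen after seeing the data, put Dusp3 at 0.04, Dusp4 at 0.21 and Spry2 at 0.06 at day 5. Dusp5 was then at -0.75.

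The day 1 array held the lowest value for 6 of 10 members (Dusp3, Dusp6, Dusp7, Dusp16, Spry1 and Spry2), beside 18.7% of measured genes. For 5 of these 6, all but Dusp3, the next lowest array lay within the yardstick. Macrophage markers were also lower at day 1, but their median difference from day 0 was lowest at day 2. At day 1, 4 of 9 were at least 2-fold lower than at day 0 (median -0.79). This held for 5 of 9 at day 2 (-1.13), 3 of 9 at day 3 (-0.82) and 2 of 9 at day 5 (-0.48). The M-CSF receptor gene Csf1r was at 12.50 on day 0, 11.71 on day 1 and 12.36 on day 5. The part of these markers in the members' day 1 values was not tested. The day 0 array held the highest value for 4 of 10 members (Dusp1, Dusp6, Dusp7 and Dusp16), beside 24.1% of measured genes.

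The remaining genes of the same families included 2 genes that were 2-fold higher at day 5, beside 6.78% of measured genes. They were Dusp9, of 3 other measured MAP kinase phosphatases, and Spry3, of 4 other measured Sprouty and Spred genes. With so few genes these counts do not set the families apart from the background. Dusp9, a cytoplasmic ERK phosphatase related to Dusp6 and Dusp7, was at 5.35, 7.32, 8.14, 7.29 and 6.49 in day order. It was highest at day 2 and lowest at day 0, and was 3.92-fold higher at day 1 (1.97) and 2.21-fold higher at day 5 (1.14) than at day 0. Dusp9 and Dusp6 thus lay on opposite sides of day 0 on every later array. Dusp10, a phosphatase of JNK and p38, was at 6.24, 7.31, 6.99, 6.61 and 6.06, so its day 1 array was highest (1.07) and day 5 was back at -0.18. Dusp8, also selective for JNK and p38, was at 5.54, 5.20, 5.27, 5.87 and 6.13, with 0.58 at day 5. The inactive family member Styxl1 was below the filter.

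Spry3 was at 4.96, 4.74, 5.29, 6.19 and 6.44 and was 2.80-fold higher at day 5 than at day 0 (1.49), low at days 0 and 1 like Spry1. Its day 0 value lay just above the filter level of 4.89 and its day 1 value below it, so the size of this difference is uncertain. Spry4 was below the filter on every array. The Sprouty-related Spred proteins, which also restrain Ras to ERK signalling, went different ways. Spred1 was highest at day 3, with 8.88, 9.29, 9.70, 10.09 and 9.78 in day order. Spred2 was at 9.30, 9.23, 9.64, 8.59 and 8.64, lower on the arrays of days 3 and 5 than on the others. Spred3 was lowest at day 2, with 6.19, 5.60, 4.92, 5.31 and 5.60. Against day 0, Spred3 was at least 2-fold lower at day 2 (-1.26), beside 5.25% of measured genes. Spred1 was at least 2-fold higher at day 3 (1.21), beside 7.29%. None of the Spred genes was 2-fold apart from day 0 at day 1 or day 5 on the deposited scale. With arrays centred on the reference gene level, Dusp9 (0.65) and Spry3 (1.00, just under the size counted) were not 2-fold apart at day 5, while Spred2 (-1.15) and Spred3 (-1.08) were. Centring on the median deviation of the reference genes, chosen after seeing the data, gave 1.12 for Dusp9 and 1.46 for Spry3. Spred2 was then at -0.68 and Spred3 at -0.61.

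**Figure D3:**
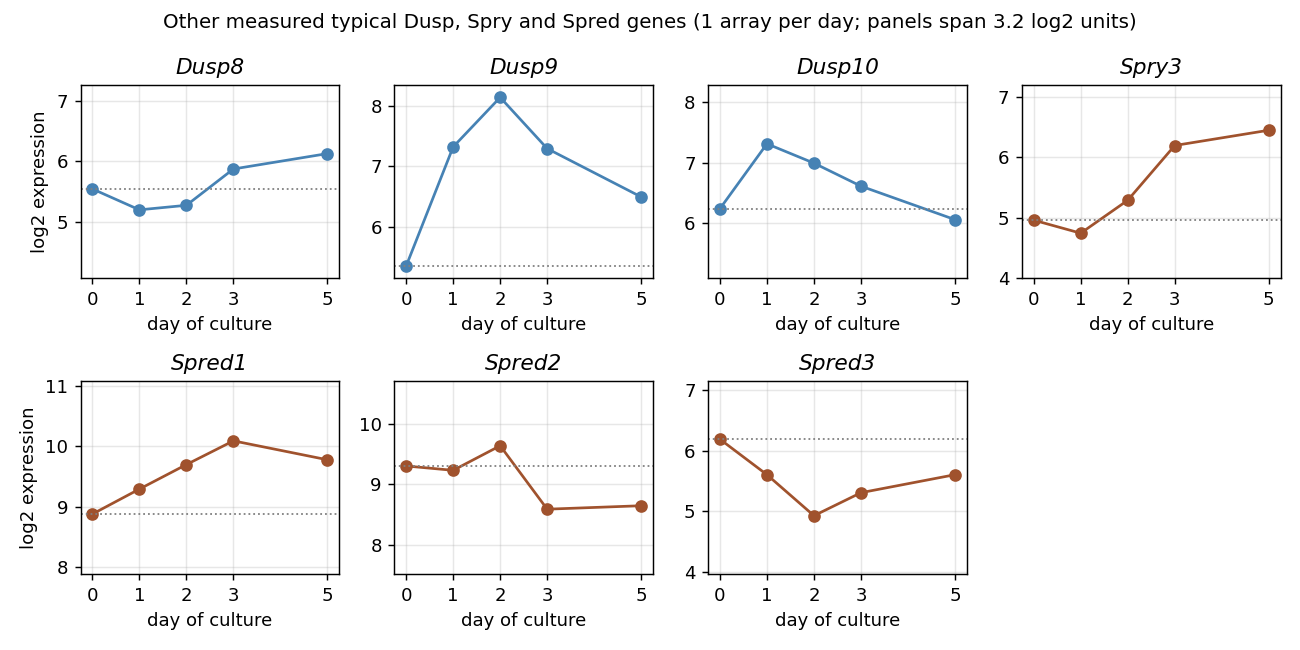
Log2 expression (vertical axis) against the day of culture (horizontal axis) of the measured family genes outside the 10 members, 1 array per day, with the dotted line at the day 0 value. Dusp9 reaches 8.14 at day 2 from 5.35 at day 0, and Spry3 ends at 6.44 from 4.96.

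The kinase cascades that these phosphatases act on were counted against the same background, 2.91% of measured genes higher and 4.17% lower at day 1, and 6.78% higher and 6.56% lower at day 5. Of 16 measured genes of the ERK cascade (of 23 listed, the others having no row analysed here), 0 were at least 2-fold higher and 2 lower at day 1 (median -0.095), and 0 in either direction at day 5 (median -0.0042). The kinase Map2k5, which activates ERK5, came closest at day 5 (1.99-fold higher), followed by the ribosomal S6 kinase Rps6ka3 (-0.95) and the adaptor Gab2 (0.85). At day 1 Rps6ka3 (-1.07) and the small GTPase Rras (-1.02) were the lower genes. Of 18 measured genes of the JNK and p38 cascades, 0 were higher and 1 lower at day 1 (median -0.17), and 0 in either direction at day 5 (median -0.13). That gene was Map3k5, the stress-activated kinase ASK1, at -1.23 on day 1 and -0.98 on day 5. The JNK gene Mapk8 stood 0.53 above day 0 at day 5, and Map3k1 at -0.54. At day 1 Map2k6 stood 0.59 above day 0. The median over all measured genes was 0.00 in both comparisons.

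Among transcripts known to respond to ERK, more were 2-fold lower than 2-fold higher. Of 23 measured genes of that list, 2 were at least 2-fold higher and 5 lower at day 1 (median -0.070, background 2.91% higher and 4.17% lower). At day 5, 2 were higher and 6 lower (median -0.18, background 6.78% and 6.56%). The ETS factors Etv1 and Etv5, which are transcribed in response to ERK in many cells, were highest at day 0 on single arrays, as Dusp6 was. Etv5 was at 10.31, 8.29, 8.19, 7.37 and 8.20 in day order, and Etv1 at 9.46, 7.25, 7.46, 7.46 and 7.75, so for both the day 0 array stood apart. Their differences at day 1 were -2.02 and -2.21, beside -1.90 for Dusp6. Cyclin D1, Ccnd1, was at 10.91, 10.86, 9.89, 7.42 and 8.35, with the low at day 3 as for Dusp5, and was 5.93-fold lower at day 5 (-2.57). The AP-1 factor Fosl2 was at 9.18, 10.24, 11.68, 11.79 and 11.48, and was 4.91-fold higher at day 5 (2.30).

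Among 17 measured inhibitors of MAP kinase signalling of other kinds, 0 were higher and 1 lower at day 1 (median -0.18), beside 2.91% and 4.17% of all measured genes. At day 5, 1 was higher and 3 lower (median -0.11), beside 6.78% and 6.56%. Ptpn7, a tyrosine phosphatase of ERK and p38 in blood cells, was at 9.42, 9.23, 8.65, 7.48 and 7.29 and was 4.37-fold lower at day 5 (-2.13). The adaptor Dok2 was at -1.52 and the pseudokinase Trib1 at -1.37 on day 5, and Trib1 was the lower gene of day 1 (-1.03). Pebp1 stood 0.63 above day 0 at day 1. The ubiquitin ligase Cblb was the higher gene of day 5 (1.17). Of 18 receptors and proximal signalling genes upstream of the MAP kinases, 5 were higher and 1 lower at day 5 (median 0.16), beside the same 6.78% and 6.56%. The osteoclast receptors Oscar (6.80) and Itgb3 (6.12) and the kinase Src (4.31) led them, and the lower one was Tlr2 (-1.12). Oscar (4.88) and Itgb3 (4.25) lay below the filter level of 4.89 at day 0, so the size of their differences is uncertain. At day 1 only Src (3.30) was higher and Tlr2 (-1.24) lower among the 18. RANK itself, Tnfrsf11a, was at 8.97 on day 0 and 9.08 on day 5.

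**Figure D4:**
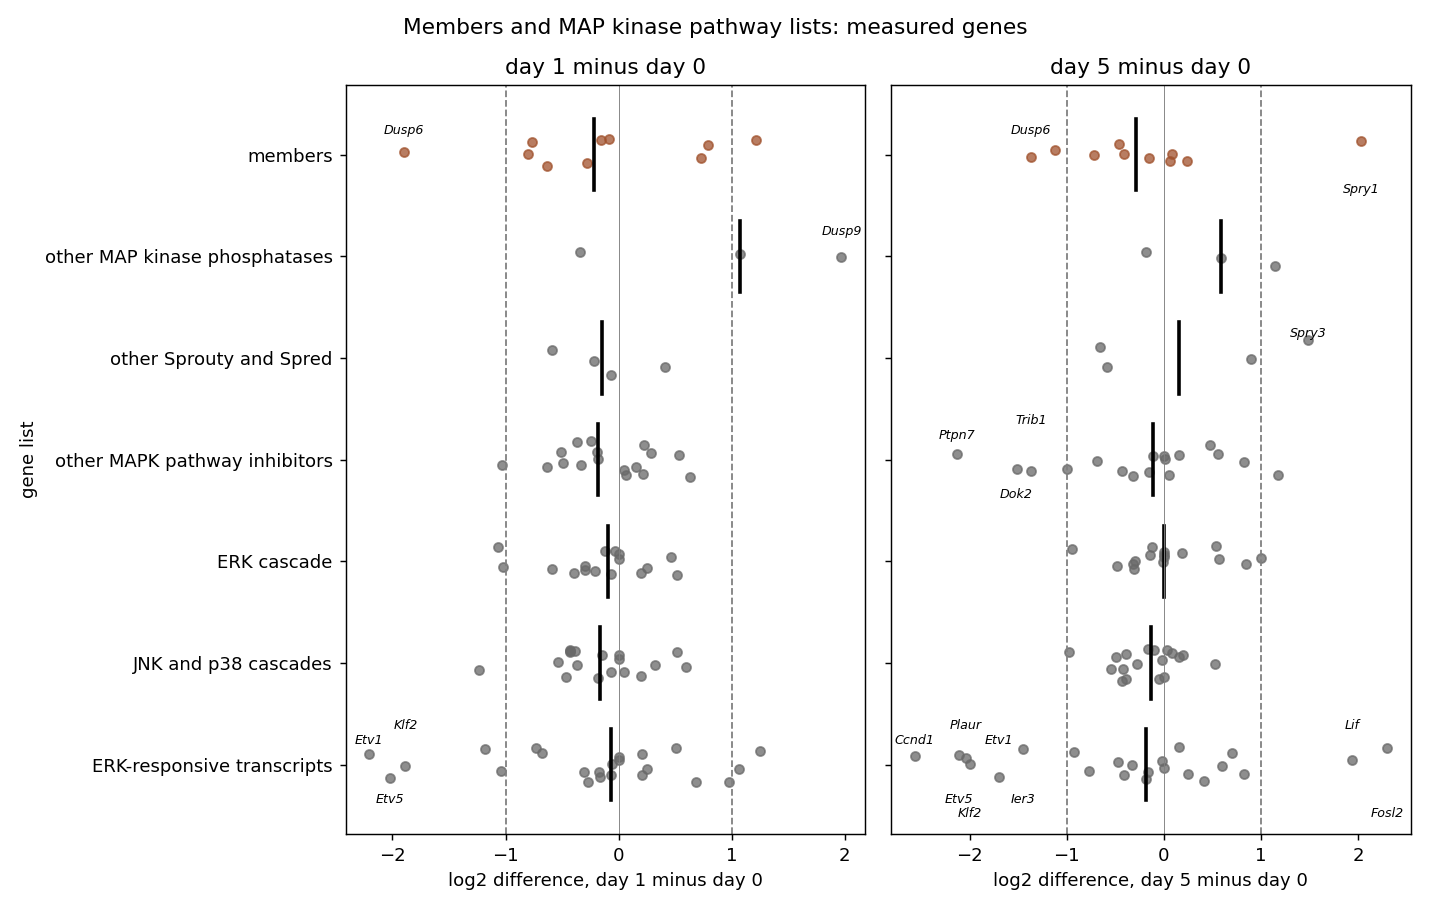
Log2 difference from day 0 (horizontal axes) at day 1 (left) and day 5 (right) for each measured gene of the members and 6 pathway lists (rows); the black bar is the list's median, the dashed lines mark 2-fold, and the vertical scatter within a row carries no value. Genes at 1.3 or more in size are named; the member farthest out is Dusp6 at day 1 and Spry1 at day 5.

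For the 3 members with the widest range, the genes with the nearest time course were found among 11067 measured protein-coding genes, by Euclidean distance between profiles centred on their own mean over the 5 arrays. Nearest to Dusp5 were Cks2, a cyclin-dependent kinase subunit (distance 0.27), Ankle1, a nuclease (0.39), and Recql4, a DNA helicase (0.40). Cks2 was at 7.29, 8.32, 7.49, 6.17 and 6.65 in day order. Nearest to Spry1 were Smpd1, the acid sphingomyelinase of lysosomes (0.21), Arhgap29 (0.24), and Arap2, an Arf GTPase-activating protein (0.27). Smpd1 was at 8.43, 8.28, 9.81, 10.66 and 10.52. Nearest to Dusp6 were Sash1, a signalling scaffold (0.23), Cd300lg, a member of the CD300 receptor family (0.30), and Nfxl1, a zinc finger protein (0.31). Sash1 was at 10.90, 9.09, 9.10, 9.21 and 9.56. With 5 single arrays many genes can share a course, and these distances carry no test.

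**Figure D5:**
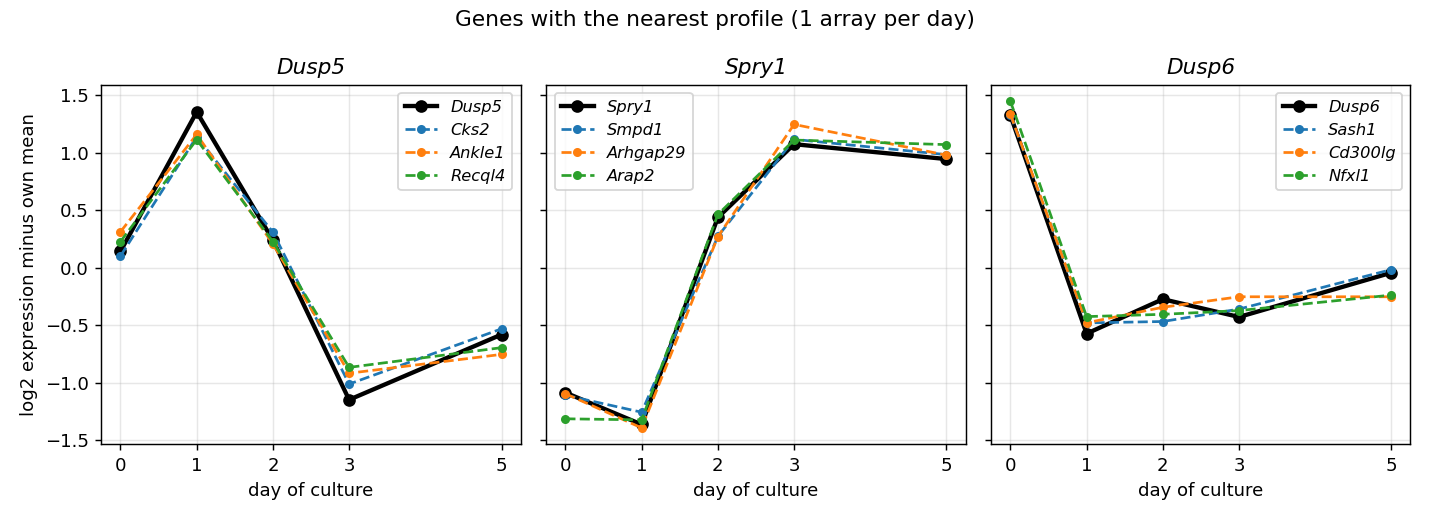
Log2 expression minus each gene's own mean over the 5 arrays (vertical axis) against the day of culture (horizontal axis) for Dusp5, Spry1 and Dusp6 (black) and the 3 genes nearest to each (dashed). The nearest genes lie at distances of 0.27 to 0.40 from Dusp5, 0.21 to 0.27 from Spry1 and 0.23 to 0.31 from Dusp6.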

How the data were processed

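Total RNA from the 5 samples was labelled from 5 ng with an Affymetrix WT Pico kit, per the labels' protocols. The deposited values are log2 expression made by the authors with RMA (oligo package, R 3.4.0), per the submitters' processing notes. RMA subtracts background, equalises the arrays by quantiles and summarises probes by median polish, so a shift of all genes cannot be seen, low values are compressed and exact ties occur. Which annotation and build lay behind the summaries is not given in the sources used here.

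Of 41345 rows, 23521 named 1 gene, 1814 several and 16010 were not listed. Where a gene had several rows, the brightest by its mean over the arrays was used. All 10 member symbols matched RefSeq by Entrez identifier. Differences are log2 values of 2 arrays, counted at 1 or more in size (2-fold). Array medians lay between 4.88 and 4.92, and the number of arrays limits the precision.

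The members and gene lists (132 entries in 8 lists, 111 measured) were chosen with earlier results of these data known. All members are named. In each list the 3 largest differences at day 5 and 2 at day 1 are named, with every Dusp, Spry and Spred gene and, after their values were seen, a few others (Cblb, Csf1r, Tnfrsf11a). Counting was tested on simulated differences larger than the size counted, with noise of the spread of day 5 against day 3. That spread is the smallest of the comparisons. The simulation was a check of the code and bears on none of the counts given here. Python 3.11.15, numpy 2.4.6, pandas 2.3.3 and matplotlib 3.10.9 were used.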

Additional observations from a re-analysis of the deposited data

How the results depend on the processing

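No paired analysis was possible because each day had 1 array, and for the same reason no replicate could be left out. Counts and differences were recomputed with all rows of a gene averaged, other array scalings, other level filters, other sizes and neighbouring days. Of the 38 recomputed counts of members, 30 stayed within 1.5 times. Some of these were bound to stay. Leaving out the level filter could not change a count, because all 10 members pass it. Averaging rows could change Dusp6 only. An equal count did not always hold the same genes. With day 2 in place of day 1 the higher member was Spry1, not Dusp5. At day 5 the lower members were Dusp1 and Dusp6. They were Dusp5 and Dusp6 with day 3 in place of day 5, and Dusp1 and Dusp5 with day 1 in place of day 0. At day 1 against day 0 the count of members higher was 3 at a size of 1.5-fold and 0 at 4-fold, and of members lower 4 and 0. With arrays centred on the reference gene level these were 0 and 2. At day 5 against day 0 no member was higher with the level filter at the 75th percentile of rows (0, since Spry1 then drops out), and 0 were lower at 4-fold. With day 1 in place of day 0, Dusp6 at day 5 turned to 0.53, because its difference lies wholly between days 0 and 1.

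Centring on the reference gene level, which left 17.5% of 2-fold calls at day 5 on the higher side against 50.8% as deposited, moved list medians at day 5. It changed every gene by the same -0.49 in that comparison, so the list medians moved together and are not separate results. They became 0.094 for other MAP kinase phosphatases, -0.33 for atypical phosphatases, -0.33 for other Sprouty and Spred genes, -0.60 for other inhibitors, -0.49 for the ERK cascade, -0.62 for JNK and p38, -0.67 for ERK-responsive transcripts and -0.33 for upstream receptors. Centring on the median deviation of the same genes, chosen after seeing the data, moved none of them past the yardstick. Without the level filter the day 1 median of other MAP kinase phosphatases was 0.54.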

Other observations

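The atypical dual-specificity phosphatases are small enzymes that mostly lack the MAP kinase docking domain. Of 15 listed genes 12 were measured, and 0 were at least 2-fold apart from day 0 at day 1 or day 5 in either direction. Of all measured genes, 2.91% were higher and 4.17% lower at day 1, and 6.78% higher and 6.56% lower at day 5. A count of 0 among 12 genes does not set them apart from these shares. The median of the 12 was 0.00 at day 1 and 0.16 at day 5. Dusp22 was at 7.98, 7.28, 7.86, 8.44 and 8.68 in day order, lowest at day 1 and highest at day 5, and stood 1.40 above its day 1 value at day 5. Dusp23 was lowest at day 1 too, with 7.31, 6.64, 7.24, 7.52 and 7.58. Epm2a, the glycogen phosphatase laforin, was at 5.15 on day 0, 4.33 on day 1 and 5.71 on day 5. Dusp28 ended highest, at 6.46 against 5.76 on day 0. Dusp19 (7.28, 8.07, 7.79, 7.75 and 7.75) and Dusp12 (7.71, 8.19, 7.84, 7.65 and 7.61) were highest at day 1.

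Flat courses were seen for Dusp11, an RNA phosphatase, with a range of 0.044, for Dusp18 (0.017) and for Dusp13 (0.24), while Dusp14 differed on the day 3 array (5.92, beside 5.43 to 5.46 on the others). Dusp15, Dusp21 and Dusp26 were below the filter.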
